A study of Mus musculus with 24 samples.

Results

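The regions described here are stretches of mouse chromatin that were listed as accessible 2 weeks after SOX9 was switched on in epidermal stem cells (EpdSCs) and at none of the other in vivo timepoints. They were chosen by the measured peaks themselves. Peaks of the 5 in vivo lists (D0, W1, W2, W6 and W12) that overlapped by at least 1 bp were merged into 98240 regions, and a region was kept when the W2 list had a peak in it and the D0, W1, W6 and W12 lists had none. This left 2531 W2-only regions, 2.58% of all in vivo regions, each with exactly 1 W2 peak. For comparison, 4600 regions were present at W1 only and 7954 at W6 only, while 7854 were on the W2, W6 and W12 lists and on neither of the earlier ones (gained by W2 and kept). In all, 61124 regions were dynamic, that is, absent from at least 1 list, and the 58593 dynamic regions other than the W2-only ones served as the main comparison.

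The assay was ATAC-seq, which uses a transposase to cut and tag open DNA. All in vivo samples came from the back skin of male CD1 mice of the genotype K14rtTA; TRE-myc-Sox9, in which the Krt14 promoter drives the doxycycline (DOX)-dependent activator in basal keratinocytes and DOX then turns on a MYC-tagged Sox9 transgene. EpdSCs were sorted as CD49f-high, Ly6A-high and CD34-neg cells that lacked CD31, CD45, CD117 and CD140a, at postnatal day 21 (D0, when DOX was started), 28 (W1), 35 (W2) and 63 (W6), and from skin grafted onto immunocompromised Nude hosts at week 12 (W12). Keratinocytes cultured from the back skin of newborn male pups, by the study's methods, gave 7 further lists. These were cells without DOX (noDOX), cells given 1 µg/ml DOX to express full-length SOX9 (WT-SOX9), a form lacking the HMG domain that contacts DNA (ΔHMG-SOX9), a form lacking the transactivation domain (ΔTA-SOX9), the dominant-negative AP1 inhibitor AFOS alone, or SOX9 together with AFOS (SOX9+AFOS) or with ARID1a, a SWI/SNF chromatin remodeller subunit (SOX9+ARID1a). All 7 carried K14rtTA, and noDOX carried TRE-myc-Sox9 as WT-SOX9 did. The methods describe lentiviral vectors, used on K14rtTA cells, as the source of the SOX9 versions. Those for AFOS and ARID1a were used on K14rtTA cells or on cells that carried K14rtTA and TRE-myc-Sox9. The labels of a replicate of WT-SOX9, ΔHMG-SOX9 and ΔTA-SOX9 give 3 days of DOX, so culture and in vivo exposures differ in length, and the duration in the other arms is not given in the labels.

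Each of the 12 groups had 2 replicates, which the authors pooled into 1 peak list, so no spread between replicates could be computed and no test over samples exists. According to the study's methods, cells of several mice went into a replicate of the sorted in vivo samples. No such number is given for the culture replicates. Intervals below are 95% Wilson intervals for shares and 95% Newcombe intervals for differences between shares. They cover counting error only, and regions are not replicates. The age of the mice rose with the week, and W12 differed from the other timepoints in being grafted, so week cannot be told apart from age, nor W12 from grafting. In these bulk samples a peak seen in few cells and a weakly open site in many cells cannot be told apart.

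Some checks of the lists bear on all that follows. The lists held 57334 (D0) to 75956 (W6) peaks in vivo, with 64095 at W2, and 49458 to 60231 in culture. Read depth is unknown, and the authors kept peaks with a normalised score of at least 3 in every list. The least certain peak kept differed between lists, with a −log10 q value (the peak caller's significance) of 4.21 at W2, 5.74 at W6, 9.37 at W1, 10.1 at W12 and 14.5 at D0. All 8 keratinocyte markers had a peak within 1 kb of a transcription start site (TSS) in every in vivo list, with summed scores of 127.6 to 176.1. Among 6 markers each, T cells had 1 such marker at W2, myeloid and Langerhans cells 1, melanocytes 2, fibroblasts 2 and mast cells 1. Their W2 scores were 37.4 (Dct), 7.53 (Pmel), 13.5 (Pdgfra), 9.86 (Col1a1), 6.78 (Lck), 6.35 (Cd68) and 5.72 (Hdc). The keratinocyte markers scored 5.27 (Col17a1) to 38.2 (Perp) at W2. Dct, Pmel, Pdgfra, Col1a1 and Lck had such a peak in every in vivo list, and Ptprc, Cd3e, Col1a2, Cdh5 and Kit in none. Endothelial markers with such a peak numbered 2 (D0), 0 (W1), 3 (W2), 2 (W6) and 2 (W12), with Pecam1 at scores of 9.21 (D0), 38.3 (W2), 42.2 (W6) and 41.4 (W12) and no such peak at W1. Of all markers of those 6 cell types, Dct, Pdgfra, Col1a1 and Cdh5 had 1 W2-only region each nearest to them, and the part of such cells in the results was not tested. A peak confined to the last exon of Sox9, which the transgene carries too, was in the D0, W2, W6 and W12 lists (scores 13.5, 15.1, 9.22 and 8.84) but not in the W1 list. DOX was started at D0 and had been given for a week at W1. Signal of the transgene and of the endogenous exon cannot be told apart here, and why the W1 list lacked the peak was not tested. The labels were used as given, and the W1-only and D0-only comparisons below rest on them. With the W1 list left out of the rule, 2984 regions would have been W2-only.

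SOX9 is an HMG-box transcription factor that directs hair follicle stem cell (HFSC) fate and can act as a pioneer factor, binding its sites in closed chromatin so that nucleosomes are displaced and other factors can enter. SOX factors bind short A- and T-rich sites, written here as ACAATAG or ACAATGG. AP1, dimers of FOS and JUN proteins bound to TGACTCA or TGAGTCA, holds open a large share of enhancers in epidermal keratinocytes. GATA factors such as GATA3 bind AGATAA, RUNX factors TGTGGT, TEAD factors, the DNA-binding partners of YAP and TAZ, CATTCC, and forkhead factors TGTTTAC.

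The following sequences are the central 200 bp of 9 W2-only regions, given 5′ to 3′ on the plus strand of GRCm38 (mm10). They show the highest-scoring region and the highest-scoring carriers of SOX, AP1 and GATA letters. The Pdzrn4 region at chr15:92629323-92629522 had the highest W2 score, 23.8, and lies in an intron of Pdzrn4, which codes for a PDZ and RING finger protein. It held no SOX letters, and the capitals mark its 2 TEAD matches.
Pdzrn4 region: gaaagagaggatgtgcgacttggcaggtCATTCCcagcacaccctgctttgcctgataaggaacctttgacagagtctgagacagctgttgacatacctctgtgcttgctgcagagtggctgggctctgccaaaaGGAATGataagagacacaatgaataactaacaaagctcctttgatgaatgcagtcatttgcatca

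The next 4 were the highest-scoring regions with a SOX match, a WT-SOX9 culture peak and no noDOX peak. They are named by the nearest TSS of a protein-coding gene, and capitals mark SOX letters on either strand. The Arl14ep region (chr2:106863191-106863390) lies in an intron of Mpped2, the Nfib region (chr4:82228991-82229190) between genes, the Alox12e region (chr11:70325741-70325940) between genes and the Gna14 region (chr19:16468946-16469145) in an intron of Gna14.
Arl14ep region: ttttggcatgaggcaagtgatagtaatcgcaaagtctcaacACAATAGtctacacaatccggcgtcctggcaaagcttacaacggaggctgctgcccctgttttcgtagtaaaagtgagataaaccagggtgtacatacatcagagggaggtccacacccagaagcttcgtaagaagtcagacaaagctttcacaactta
Nfib region: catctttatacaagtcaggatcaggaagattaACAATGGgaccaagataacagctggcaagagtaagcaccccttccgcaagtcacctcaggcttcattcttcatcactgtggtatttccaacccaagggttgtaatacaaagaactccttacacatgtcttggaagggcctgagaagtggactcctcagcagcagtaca
Alox12e region: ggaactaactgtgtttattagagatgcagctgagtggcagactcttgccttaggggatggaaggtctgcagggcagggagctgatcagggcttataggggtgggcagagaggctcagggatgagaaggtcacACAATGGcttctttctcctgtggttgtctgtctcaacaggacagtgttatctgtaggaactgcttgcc
Gna14 region: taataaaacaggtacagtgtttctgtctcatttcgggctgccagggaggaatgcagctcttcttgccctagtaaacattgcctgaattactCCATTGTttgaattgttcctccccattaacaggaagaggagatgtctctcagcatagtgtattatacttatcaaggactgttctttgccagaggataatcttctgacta

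Capitals in the next pair mark AP1 letters. The 4930452B06Rik region (chr14:9460102-9460301) lies in an intron of the non-coding gene Gm48371, and the Col4a3 region (chr1:82717888-82718087) overlaps an exon of Col4a3, which codes for a collagen IV chain.
4930452B06Rik region: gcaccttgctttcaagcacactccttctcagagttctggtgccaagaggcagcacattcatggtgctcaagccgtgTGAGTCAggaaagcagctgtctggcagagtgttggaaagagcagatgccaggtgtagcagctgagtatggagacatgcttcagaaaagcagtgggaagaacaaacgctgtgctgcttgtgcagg
Col4a3 region: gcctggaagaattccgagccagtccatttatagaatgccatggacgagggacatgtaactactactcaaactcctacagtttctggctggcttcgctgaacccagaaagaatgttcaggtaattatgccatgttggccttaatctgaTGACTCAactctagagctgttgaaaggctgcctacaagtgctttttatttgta

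In the last pair capitals mark GATA letters. The Rad21 region (chr15:52003144-52003343) is intergenic and the Zbtb20 region (chr16:43114029-43114228) lies in an intron of Zbtb20, a zinc finger repressor gene.
Rad21 region: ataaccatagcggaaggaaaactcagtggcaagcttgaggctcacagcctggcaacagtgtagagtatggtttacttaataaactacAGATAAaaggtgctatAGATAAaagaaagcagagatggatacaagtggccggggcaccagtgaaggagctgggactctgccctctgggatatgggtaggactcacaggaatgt
Zbtb20 region: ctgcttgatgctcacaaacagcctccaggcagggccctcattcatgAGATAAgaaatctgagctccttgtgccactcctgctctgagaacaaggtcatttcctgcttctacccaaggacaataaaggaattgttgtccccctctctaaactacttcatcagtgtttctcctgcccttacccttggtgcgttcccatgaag

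The W2-only regions rested on weak and narrow peaks. Their W2 scores ran from 3.01 to 23.8 with a median of 4.39, against a median of 10.3 for the other 61564 W2 peaks. Fold enrichment over background had a median of 4.79 against 7.30, −log10 q a median of 6.97 against 18.9, and width a median of 252 against 438 bp. A score under 4, close to the floor of the list, was held by 1080 regions (42.7%), and 236 shared the single score 3.54. Only 64 regions (2.53%) reached a score of 10, and 53 (2.09%) passed the median of the other W2 peaks. These values come from the list that chose the regions and are a description.

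**Figure D1:**
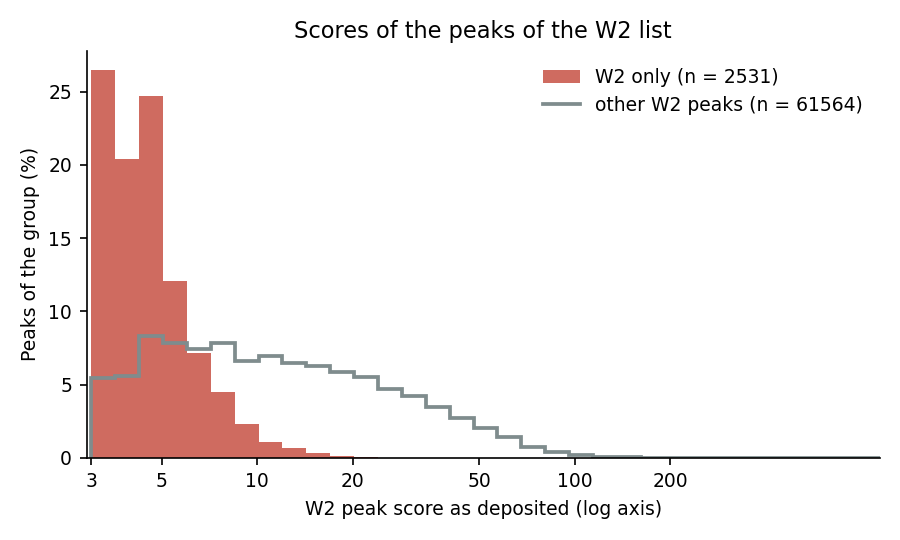
Distribution of deposited W2 peak scores (log axis) for the 2531 W2-only peaks (filled) and the 61564 other W2 peaks (line), as percent of each group. The W2-only peaks crowd towards the lowest score kept, 3, with a median of 4.39 against 10.3.

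The absence of these regions from the other lists was read against those lists' own floors. Of the 2531 peaks, 1773 (70.1%) had a −log10 q at or above the lowest value kept at W6, 523 (20.7%) at or above that at W1, 419 (16.6%) at W12 and 142 (5.61%) at D0. Most of the peaks were thus above the −log10 q floor of the W6 list, and few were above that of the D0 list. When every list was held to a common −log10 q minimum of 14.5, 602 regions were present at W2 only, and with the W6 list left out of the rule 5349 were.

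Other in vivo peaks usually lay some distance away. The nearest peak of another in vivo list was a median of 3566 bp from a W2-only region, 362 regions (14.3%) had one within 500 bp, and 1925 (76.1%) had one within 10000 bp. At the edge of the rule, 3 regions had another list's peak 0 to 10 bp away (W2 scores 3.11 to 5.12), and 4 W2 peaks that others overlapped by only 1 to 10 bp fell just outside (3.11 to 5.59).

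W2-only regions lay mainly in introns and between genes. By the position of their centre in GENCODE vM21, 1337 (52.8%) were intronic, 997 (39.4%) intergenic and 197 (7.78%) exonic. The other dynamic regions were 50.7% intronic, 41.3% intergenic and 8.06% exonic. A TSS lay within 1 kb of 316 regions, or 12.5% (11.3 to 13.8), where 11.8% of the other dynamic regions and 21.7% of all in vivo regions had one. The difference from the other dynamic regions, 0.67 points (−0.59 to 2.04), included 0 and turned negative in 9 of 15 alternative settings. It was −3.05 points when a W2 score of at least 5 was required and −8.35 points at the common −log10 q minimum. Within the set, the 633 lowest-scoring regions had a TSS within 1 kb in 15.6% of cases and the 633 highest-scoring in 8.21%, a difference of −7.42 points (−11 to −3.87). Median distance to the nearest TSS of a protein-coding gene was 20823 bp, against 19195 bp in the other dynamic regions.

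Their base composition was close to that of other dynamic chromatin. GC content of the central 200 bp had a median of 48.5% in both groups. Repeats masked over 50% of the window in 100 regions (3.95%, 3.26 to 4.78), against 3.53% of all in vivo and 4.54% of other dynamic regions. The share was 5.41% for W1-only, 7.23% for W6-only and 3.21% for kept regions. Over the autosomes and the X, the share of in vivo regions that were W2-only ran from 1.95% on chromosome 3 to 3.99% on the X (80 of 2003). The Y had 3 of 31 and the unplaced sequences 1 W2-only region in all.

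The 10 highest-scoring regions were spread over 9 chromosomes and lay 8153 to 363705 bp from the nearest coding TSS. Among them, after the Pdzrn4 intron, was a region 15838 bp upstream of the TSS of Tcerg1l (chr7:138413348-138413788, score 19.3). The Tcerg1l region was the only one of the 10 within 1 kb of any annotated TSS, 46 bp from that of the non-coding Gm45686, and it had no culture peak.

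Lower in order were intergenic regions whose nearest coding TSS was that of Rad21 (score 17.5, 11497 bp away), a cohesin subunit gene, Btg1 (17.4, 363705 bp), which codes for an antiproliferative factor, and 4933402N22Rik (17.1, 201444 bp). Introns of Rgs6 (15.8), a regulator of G-protein signalling, Zbtb20 (15.6) and Hibch (15.5), a valine catabolism enzyme gene, followed, and last a region 154059 bp from the TSS of Ktn1 (15.5). Among the 10, only the Pdzrn4 and Zbtb20 regions had a WT-SOX9 peak without a noDOX peak. The Pdzrn4 region scored 25.5 in WT-SOX9, 3.87 in SOX9+AFOS and 11.4 in SOX9+ARID1a. The Zbtb20 region scored 20.1, 14 and 8.84 in the same lists, and neither had a peak in noDOX, AFOS, ΔHMG-SOX9 or ΔTA-SOX9.

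SOX letters were more frequent in W2-only regions than in other dynamic chromatin, and AP1 letters much less frequent. Motif letters were searched as exact matches on both strands of the central 200 bp, and a region may hold several motifs. SOX letters were found in 246 regions (9.72%, 8.63 to 10.9), against 6.52% of the other dynamic regions, a difference of 3.19 points (2.08 to 4.43), and 5.33% of all in vivo regions. AP1 letters were in 238 regions (9.40%, 8.33 to 10.6) against 22.4%, a difference of −13 points (−14.1 to −11.7), and 19.6% of all in vivo regions. Scanning the full region in place of a fixed window turned the SOX difference to −0.65 points, where W2-only regions, at a median of 252 bp, were shorter than the other dynamic regions at 422 bp.

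TEAD, GATA and forkhead letters were also more frequent. TEAD letters were in 512 regions, or 20.2% (18.7 to 21.8), against 14.5% of the other dynamic regions, a difference of 5.69 points (4.15 to 7.33), and 13.8% of all in vivo regions. GATA letters were in 364 regions, or 14.4% (13.1 to 15.8), against 11.7%, a difference of 2.70 points (1.36 to 4.15), and 10.5% of all. The GATA difference was 1.21 points, with an interval that included 0 (−0.02 to 2.53), when lists were cut to the length of the shortest, and 1.09 (0.18 to 2.05) without the W6 list. Forkhead letters were in 137 regions, or 5.41% (4.60 to 6.36), against 3.15%, a difference of 2.26 points (1.43 to 3.22), and 2.96% of all. With the full region scanned the TEAD and GATA differences became −2.59 and −4.85 points, and the forkhead difference 0.53 with an interval that included 0 (−0.47 to 1.66). With a W2 score of at least 5 required, the TEAD difference was 10.3 and the forkhead difference 4.01 points, and without the W6 list in the rule they were 3.42 (2.37 to 4.51) and 1.34 points (0.80 to 1.95). The TEAD and forkhead comparisons were picked from 24 motifs after their values had been seen. Intervals above 0 were also found for the nuclear receptor half-site AGGTCA (13.9% of W2-only and 10.8% of all in vivo regions, a difference from the other dynamic regions of 2.65 points, 1.33 to 4.08) and for the ZEB E-box CAGGTG (21.2% and 18.6%, 2.58 points, 1.00 to 4.25). Smaller differences of the same sign were those of the TCF/LEF letters CTTTGAT or CTTTGAA (8.61% and 6.64%, 1.35 points, 0.30 to 2.52) and of the STAT letters TTCCNGGAA (1.46% and 0.98%, 0.45 points, 0.04 to 1.00). KLF letters (GGGTGTG) were less frequent (8.14% and 9.18%, −1.30 points, −2.33 to −0.15). These 5 motifs were not run under the alternatives.

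RUNX letters were less frequent, in 306 regions (12.1%, 10.9 to 13.4) against 16.7%, a difference of −4.65 points (−5.90 to −3.29), and 14.9% of all in vivo regions. The motif of CTCF, the factor that marks loop anchors, was in 49 regions (1.94%) against 2.72%, a difference of −0.79 points (−1.28 to −0.16), and 2.39% of all. The CTCF interval included 0 in some settings, as with a score of at least 5 in every list (−0.36 points, −0.85 to 0.26) or without the W1 list (−0.22 points, −0.74 to 0.41). For TBX letters (AGGTGTGA) the shares were 1.26% and 1.43%, a difference of −0.17 points (−0.55 to 0.36), with 1.30% in all in vivo regions. With the W1 list left out of the rule, the differences from the other dynamic regions were 2.44 points for SOX, −13.98 for AP1, 2.97 for GATA, −4.71 for RUNX, 5.18 for TEAD and 2.05 for forkhead letters, and −9.59 for a WT-SOX9 culture peak.

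For SOX, GATA and AP1 letters the W2-only regions lay between regions confined to W1 and regions gained and kept. SOX letters were in 2.43% of W1-only regions, 7.28 points fewer than at W2 only (6.09 to 8.57). They were in 9.19% of W6-only regions, which the W2-only share exceeded by 0.53 points with an interval that included 0 (−0.75 to 1.89), and in 12.2% of kept regions (difference −2.48 points, −3.8 to −1.07). In the list labelled D0, the 1424 regions found nowhere else held SOX letters in 2.53% of cases (1.83 to 3.48), GATA letters in 20.4% and AP1 letters in 17.3%. GATA letters were in 19.9% of W1-only, 14.4% of W2-only, 7.48% of W6-only and 7.92% of kept regions. The W2-only share was 6.46 points above that of kept regions (5.01 to 8.0) and differed from that of W1-only regions by −5.53 points (−7.3 to −3.72). AP1 letters were in 7.11% of W1-only and 9.40% of W2-only regions but in 18.9% of W6-only and 26.9% of kept regions, the last a difference of −17.4 points from W2 only (−18.9 to −15.9). TEAD letters were higher at W2 only than in each of the 3 other groups, by 6.21 points over W1 only (4.37 to 8.09), 6.69 over W6 only (4.99 to 8.46) and 4.38 over kept regions (2.65 to 6.17).

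**Figure D2:**
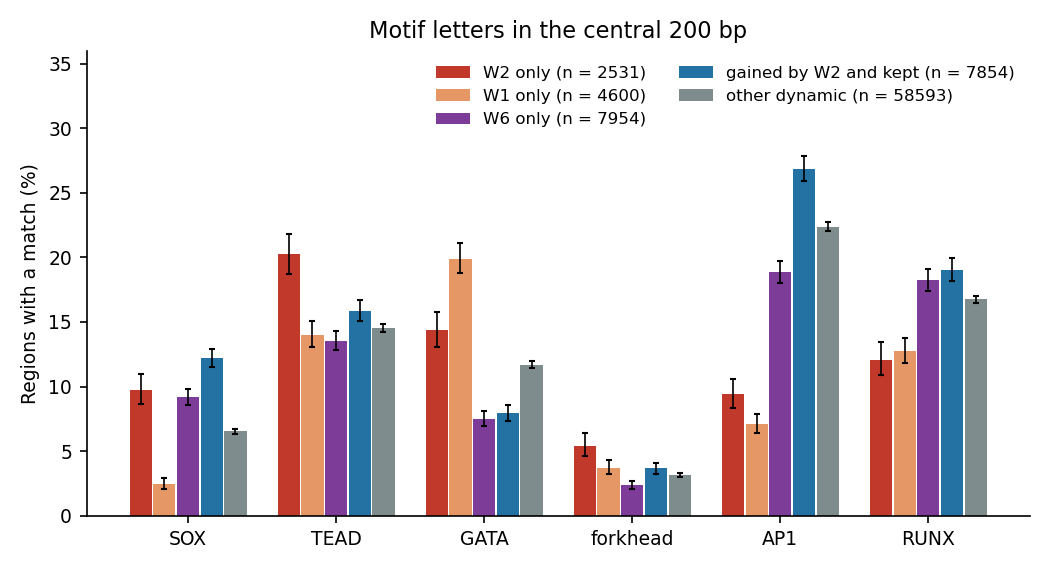
Percent of regions whose central 200 bp held the letters of each motif, for W2-only regions and 4 comparison groups. Bars are shares and error bars 95% Wilson intervals. SOX letters stand at 9.72% in W2-only regions and 2.43% in W1-only regions, and AP1 letters at 9.40% against 26.9% in regions gained by W2 and kept.

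Around the W2 summit, the base with the most signal, most of these letters were more frequent than in flanking DNA. In the 200 bp at the summit, SOX letters were in 9.45% of W2-only peaks, against 5.16% of windows 800 to 1000 bp away, a difference of 4.29 points (3.03 to 5.62). TEAD letters were in 20.04% against 11.2% (8.81 points, 7.05 to 10.6), AP1 letters in 9.17% against 3.18% (5.99 points, 4.8 to 7.26), GATA letters in 14.3% against 10.6% (3.77 points, 2.20 to 5.41) and forkhead letters in 5.30% against 3.0% (2.29 points, 1.34 to 3.33). RUNX letters were less frequent at the summit than away from it, at 11.5% against 14.2% (−2.71 points, −4.25 to −1.10).

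The same profile was drawn for 21468 other W2 peaks in dynamic regions. Their SOX letters were at 9.40% at the summit and 4.87% away from it, a difference of 4.53 points (4.09 to 4.97) beside the 4.29 points of W2-only peaks. Their AP1 letters exceeded the flank by 17.2 points (16.6 to 17.8), and their GATA letters were at 10.9% at the summit and 11.3% away from it (−0.44 points, −0.94 to 0.08). TEAD letters exceeded the flank by 5.76 points (5.18 to 6.34) in these peaks and forkhead letters by 0.95 points (0.66 to 1.25). RUNX letters did so by 1.38 points (0.78 to 1.98), beside −2.71 points in W2-only peaks.

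**Figure D3:**
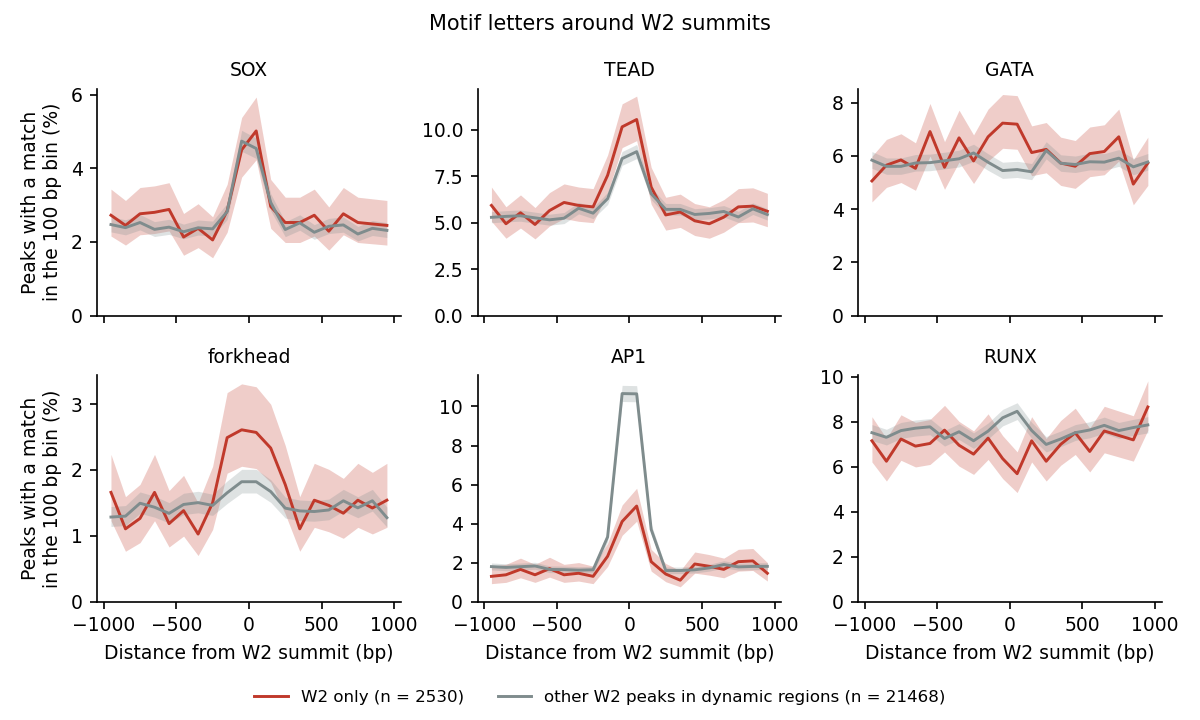
Percent of peaks with a match in each 100 bp bin within 1000 bp of the W2 summit, for 2530 W2-only peaks (red) and 21468 other W2 peaks in dynamic regions (grey). Bands are 95% Wilson intervals, and each panel has its own scale from 0. SOX curves lie on each other, while AP1 letters reach 9.17% of W2-only summits (200 bp) and 20.9% of the others.

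The culture lists, which the rule did not use, gave an independent readout of the same places. At least 1 of the 7 lists had a peak in 771 W2-only regions (30.5%, 28.7 to 32.3), and 1760 (69.5%) had none, against 50.9% without any among other dynamic regions. Peaks were most frequent where full-length SOX9 was expressed. WT-SOX9 had a peak in 408 regions (16.1%, 14.7 to 17.6), SOX9+AFOS in 416 (16.4%, 15.04 to 17.9) and SOX9+ARID1a in 380 (15%, 13.7 to 16.5). The shares without it were lower, with 295 regions in noDOX (11.7%, 10.5 to 13), 300 in AFOS (11.9%, 10.6 to 13.2), 238 in ΔHMG-SOX9 (9.40%, 8.33 to 10.6) and 239 in ΔTA-SOX9 (9.44%, 8.36 to 10.6).

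All of these shares were below those of the in vivo regions as a whole. A peak was found in 45.4% of all in vivo regions in noDOX, 42.3% in WT-SOX9, 41.7% in ΔHMG-SOX9, 43.0% in ΔTA-SOX9, 43.0% in AFOS, 39.9% in SOX9+AFOS and 43.1% in SOX9+ARID1a. Against the other dynamic regions, the W2-only share was lower by 16.6 points in noDOX and by 10.4 points in WT-SOX9 (interval of the difference −11.8 to −8.86). Against regions present in exactly 1 of the other 4 in vivo lists the WT-SOX9 difference was −0.21 points, so this gap depended on the comparison group. Against W1-only regions it was 6.29 points (4.65 to 7.99), and against W6-only regions −1.32 points (−2.94 to 0.38).

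Opening in culture was read as a peak in an arm and none in noDOX, over the 2236 W2-only regions without a noDOX peak. WT-SOX9 opened 229 of them (10.2%, 9.05 to 11.6), SOX9+AFOS 241 (10.8%) and SOX9+ARID1a 195 (8.72%). AFOS alone opened 98 (4.38%), ΔTA-SOX9 64 (2.86%) and ΔHMG-SOX9 51 (2.28%, 1.74 to 2.99). Over all in vivo regions without a noDOX peak, WT-SOX9 opened 11.8%, ΔHMG-SOX9 5.90%, ΔTA-SOX9 8.88%, AFOS 8.67%, SOX9+AFOS 13.1% and SOX9+ARID1a 11.2%. Against the other dynamic regions, the W2-only share differed by −1.55 points in WT-SOX9 (−2.78 to −0.19), −1.42 in SOX9+AFOS (−2.68 to −0.03) and −1.93 in SOX9+ARID1a (−3.07 to −0.66), and by −3.35 in ΔHMG-SOX9 (−3.93 to −2.61), −5.90 in ΔTA-SOX9 (−6.57 to −5.08) and −4.24 in AFOS (−5.06 to −3.27). Taken over all regions of each group, noDOX peak or not, regions opened by WT-SOX9 were 0.58 points more frequent in the W2-only set, with an interval that included 0 (−0.50 to 1.78). Over 13 alternatives, tried for this share after seeing the data, the difference ran from −0.77 points (−1.94 to 0.52, standardised to the W2 score) to 7.73 points (5.05 to 10.8, at the common −log10 q minimum), and was positive in 11. W1-only regions opened in 3.76% and D0-only regions in 2.0% of cases in WT-SOX9, the former 6.49 points fewer than W2-only regions (5.14 to 7.92), and kept regions in 32.5% (difference of W2-only from kept −22.2 points, −24.02 to −20.4). W6-only regions opened in 10.4% of cases (705 of 6768), from which the W2-only share differed by −0.18 points with an interval that included 0 (−1.58 to 1.33). Of the 295 W2-only regions with a noDOX peak, 31.5% (AFOS) to 40.7% (ΔTA-SOX9 and SOX9+AFOS) lacked one in an arm given DOX. Over all in vivo regions with a noDOX peak these shares were 21% (WT-SOX9), 15.3% (ΔHMG-SOX9), 16% (ΔTA-SOX9), 15.9% (AFOS), 28% (SOX9+AFOS) and 18.6% (SOX9+ARID1a). Against the other dynamic regions, W2-only regions lacked the peak more often in ΔTA-SOX9 (16.3 points, 10.8 to 22.0), ΔHMG-SOX9 (12.1, 6.76 to 17.8), SOX9+ARID1a (9.48, 4.11 to 15.2) and AFOS (8.61, 3.53 to 14.2). The difference was 3.25 points in WT-SOX9, with an interval that included 0 (−2.20 to 8.97), and −7.71 points in SOX9+AFOS (−13.2 to −1.97).

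Region by region, 147 W2-only regions had peaks in both WT-SOX9 and ΔHMG-SOX9, 261 in WT-SOX9 alone of the pair and 91 in ΔHMG-SOX9 alone. For ΔTA-SOX9 the corresponding numbers were 132, 276 and 107. WT-SOX9 and SOX9+AFOS shared 241, with 167 and 175 in 1 of them alone. These pair counts were made for the W2-only set alone, so whether they are particular to it was not tested. Over all in vivo regions, 42.3% had a peak in WT-SOX9, 41.7% in ΔHMG-SOX9, 43.0% in ΔTA-SOX9 and 39.9% in SOX9+AFOS. At least 1 list with full-length SOX9 and none of the 4 others had a peak in 340 regions (13.4%, 12.2 to 14.8), against 10.9% of other dynamic regions. The reverse pattern was found in 127 regions (5.02%, 4.23 to 5.94), against 9.35%. SOX letters were in 50 of those 340 (14.7%) and in 3 of those 127 (2.36%). The share of SOX letters among other in vivo regions with the same patterns was not computed.

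**Figure D4:**
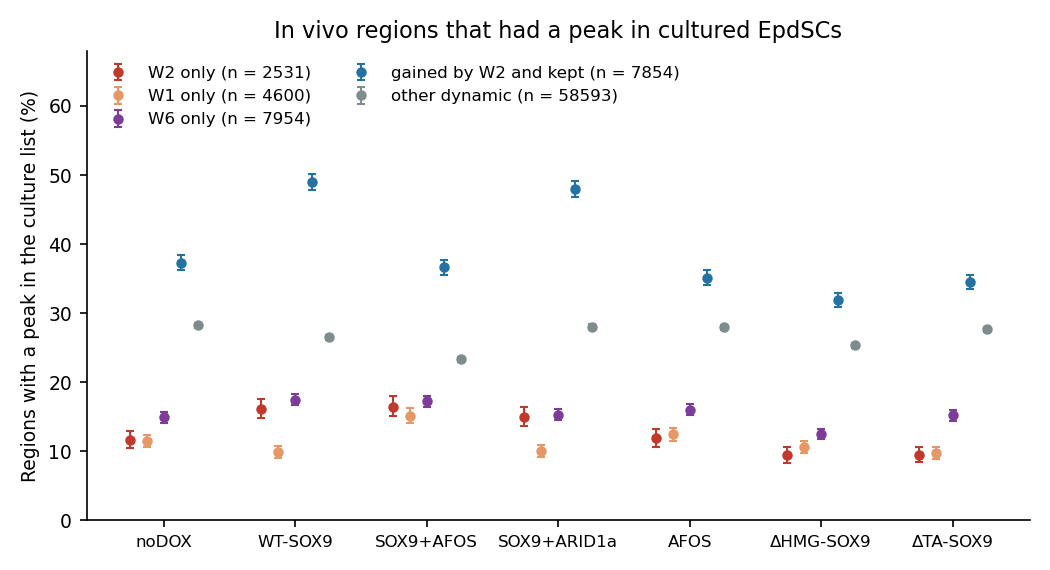
Percent of in vivo regions with a peak in each culture list, for W2-only regions and 4 comparison groups. Points are shares and bars 95% Wilson intervals (hidden by the point where narrow). W2-only regions reach 15% to 16.4% in the 3 lists with full-length SOX9 and 9.40% to 11.9% in the 4 others.

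The W2-only regions differed among themselves by their culture pattern. This split and the next were made within the W2-only set alone, so whether they are particular to it was not tested. The 229 regions with a WT-SOX9 peak and no noDOX peak held SOX letters in 17.0% of cases (12.7 to 22.4), against 9.66% of the 1760 regions with no culture peak, a difference of 7.37 points (2.81 to 12.9). GATA letters were in 20.1% against 14.1% (6.0 points, 1.02 to 11.9), and AP1 letters in 5.68% against 8.07% (−2.39 points, −5.09 to 1.58).

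The 295 regions with a noDOX peak showed another make-up. They held AP1 letters in 17.6% of cases, 9.56 points more than regions with no culture peak (5.40 to 14.5), and TEAD letters in 30.2%, 12.9 points more (7.61 to 18.6), while SOX letters were in 6.10% (−3.56 points, −6.21 to 0.02). A TSS lay within 1 kb of 18.6% of them, against 12.05% of regions with no culture peak. The median W2 score was 4.39 in these regions, 4.42 in those opened by WT-SOX9 and 4.33 in those with no culture peak.

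**Figure D5:**
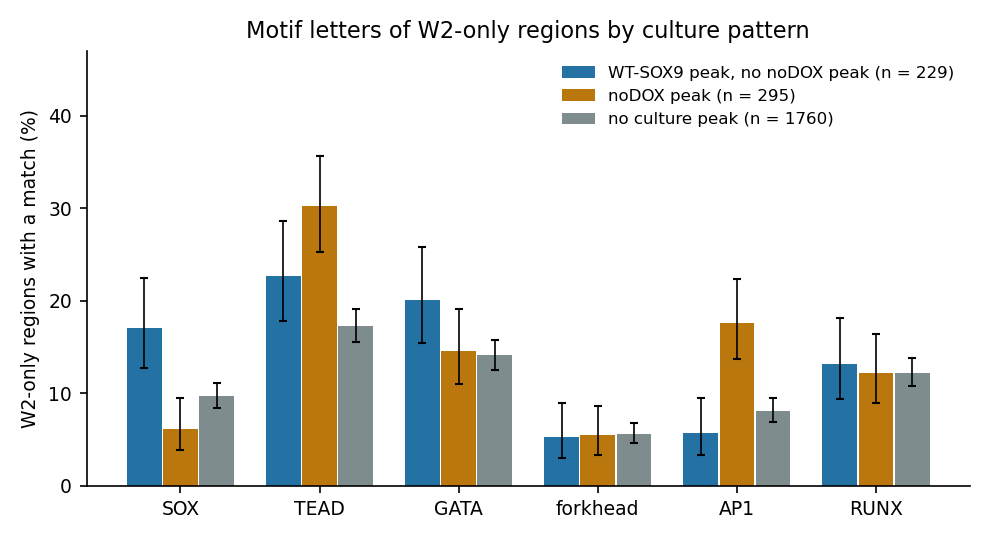
Percent of W2-only regions with each motif's letters in the central 200 bp, split by culture pattern. Bars are shares and error bars 95% Wilson intervals. SOX letters reach 17.0% where WT-SOX9 had a peak and noDOX none, and AP1 and TEAD letters 17.6% and 30.2% where noDOX had a peak.

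SOX letters did not differ beyond counting error between strong and weak W2 peaks. The 633 highest-scoring regions held them in 10.4% of cases and the 633 lowest-scoring in 9.32%, a difference of 1.11 points (−2.20 to 4.42). GATA letters went from 12.3% to 19.3% (6.95 points, 2.94 to 11) and TEAD letters from 17.2% to 25.6% (8.37 points, 3.86 to 12.8) between the same groups, which the W2 score defined. Regions with SOX letters had a WT-SOX9 peak without a noDOX peak in 15.9% of cases, against 8.32% of those without (7.54 points, 3.33 to 12.7). Their noDOX share was lower, at 7.32% against 12.1% (−4.81 points, −7.79 to −0.65). Whether the same holds for other in vivo regions with SOX letters was not tested.

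The 4 SOX-bearing regions shown above illustrate the range of culture scores. The Arl14ep region (W2 score 13.2) scored 12.7 in WT-SOX9, 6.44 in SOX9+AFOS and 17.1 in SOX9+ARID1a. The Gna14 region (8.79) scored 28.1, 36.2 and 12.8. The Nfib region (9.56) and the Alox12e region (8.80), near an epidermal lipoxygenase gene, scored 4.47 and 5.61 in WT-SOX9 and 6.44 and 6.14 in SOX9+ARID1a, with no SOX9+AFOS peak. None of the 4 had a peak in AFOS, ΔHMG-SOX9 or ΔTA-SOX9. At the other extreme, 64 W2-only regions (2.53%) had a peak in all 7 lists, against 7.80% of the other dynamic and 24.3% of all in vivo regions. The highest-scoring of them, 19117 bp from the Pigt TSS and chosen here after its values were seen, scored 12 at W2 and 21.3 to 94.4 in culture.

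Regions were assigned to the protein-coding gene with the nearest TSS, which need not be the gene they regulate. The 2531 regions fell to 1941 genes, 1532 of which had a single one. Genes of 18 lists of skin, signalling and cell-state genes, 412 in all, took 152 W2-only regions, or 6.01% (5.14 to 7.0), against 5.65% of the other dynamic regions and 5.63% of all. None of the lists held over 1% of the W2-only regions. The share of a list's in vivo regions that were W2-only ran from 0.847% to 3.8%, beside 2.58% over all regions. It was 3.7% for keratin and for cell cycle genes, 3.2% for TGF-beta and BMP, 3.17% for AP1 subunit, 3.01% for nuclear receptor, 2.82% for follicle marker and 2.69% for Hedgehog genes. Below the background were cytokine (2.53%), EGF (2.33%), Notch (2.31%), integrin and basement membrane (2.24%), EMT and cadherin (2.16%), WNT (1.92%), SOX and RUNX (1.77%), differentiation (1.6%) and desmosome and junction genes (0.847%). For every list, the interval of its share of the W2-only regions included its share of all in vivo regions. No list thus departed from the background beyond counting error.

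HFSC transcription factor genes took 23 regions at 12 of 20 genes, 2.83% of the 812 in vivo regions of that list, near the 2.58% over all regions. The highest-scoring lay 86321 bp upstream of Foxc1 (score 10.5), a forkhead gene of HFSC quiescence, and 270225 and 195051 bp downstream of the TSS of Nfib (9.56 and 7.91), a gene for a nuclear factor of HFSCs. Follicle surface and secreted markers took 7 regions at 5 of 17 genes. These included introns of Lgr6, an R-spondin receptor of follicle stem cells (7.0 and 4.27), and a site 6342 bp upstream of Dkk3, a secreted Dickkopf-family protein (3.78).

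Epidermal identity transcription factors took 23 regions at 10 of 20 genes, 3.8% of the list's regions. An intron of Barx2, a homeobox gene, held the highest (10.004), and Gata6, of sebaceous and upper follicle cells, had 4 regions with scores of 3.05 to 8.45 and none with a culture peak. Keratin genes took 4, led by a site 1966 bp upstream of Krt15, a basal and HFSC keratin gene (8.23). A second, in an intron of Krt80, scored 7.42 at W2 and 4.11 to 32.7 in all 7 culture lists. Epidermal differentiation genes took 2 regions among 22 genes, near Lor (9.0), the loricrin gene, and Ppl (4.02), the periplakin gene.

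Among signalling genes, TGF-beta and BMP genes took 21 regions at 14 of 34 genes. The highest had as nearest TSS that of Tgfb2 (10.1, 64063 bp away), which codes for a ligand, and of Smad2 (8.73, 96451 bp) and Smad1 (8.45, 18822 bp), which code for receptor-activated SMADs. The Smad2 and Smad1 regions both carried SOX and GATA letters. WNT genes took 7, with Lrp5 (6.61) and Fzd7 (6.12), both co-receptor or receptor genes, in front of the ligand gene Wnt7b (5.33). Hedgehog genes took 6, with regions near Boc (6.70) and Cdon (4.72), genes of Hedgehog-binding co-receptors, and 52113 bp upstream of the ligand gene Shh (5.12), the last with SOX, AP1 and forkhead letters. Notch genes took 7, led by an intron of the ligand gene Jag1 (9.997), then Rbpj (4.44) and Maml3 (4.42), which code for the DNA-binding effector and a co-activator. EGF receptor and ligand genes took 7, with Nrg1 (4.42), Btc (4.36) and Erbb4 (3.97) highest.

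AP1 subunit genes took 4 regions, of which Fosl2 (6.67) had a culture peak in AFOS alone (14.8) and the next in score lay near Batf3 (5.07 and 3.43). SOX and RUNX genes took 8, including 2 far upstream of Runx1 (5.16 and 4.89) and an intron of Sox6 (4.89). EMT and cadherin genes took 5 (Cdh11 4.47, Cdh13 3.97 and Cdh4 3.54 highest), integrin and basement membrane genes 9 (Dst 8.63, Itga2 5.36, Itgb8 4.89), and desmosome and junction genes 2 (Perp 5.36, Cldn4 5.22). The Cldn4 region, near a claudin gene, scored 19.8 to 73.2 across the 7 culture lists. Cell cycle genes took 12 regions at 5 of 36 genes, and cytokine and inflammation genes 8, with a region 88 bp from the TSS of Stat3, a cytokine-signalling transcription factor (6.55). Nuclear receptor genes took 11 at 7 of 27 genes, including a pair in an intron of the retinoic acid receptor gene Rarb (13.3 and 9.06), 34475 bp or more from a peak of another in vivo list, the first with GATA and the second with SOX and RUNX letters.

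Few genes gathered several W2-only regions. The most were 7, at Cited2 and Myc, and 7 genes tied at 6, of which the 3 with the highest-scoring regions (Zbtb20, Ccn2 and Bcor) are described. Cited2 (a CBP- and p300-binding transcriptional modulator gene) had 60 in vivo regions in all and Myc (a proliferation-driving transcription factor gene) 113, so 11.7% and 6.19% of them were W2-only, where the whole series had 2.58%. For Zbtb20, Ccn2 and Bcor this share was 11.8%, 19.4% and 13.6%. The genes were picked for their number of W2-only regions, so high shares follow from the choice. The Cited2 regions scored 3.11 to 11.3 and lay 4527 to 1195270 bp from its TSS, and the Myc regions scored 3.54 to 4.42, none of either with SOX letters. Those of Zbtb20 were all intronic, with scores of 15.6, 13, 6.57, 4.49, 3.54 and 3.54. Those of Ccn2, a matricellular protein gene and known YAP target, scored 4.41 to 7.93, among them a site 154741 bp upstream with a score of 33.5 in WT-SOX9, 3.03 in SOX9+AFOS and 11.9 in SOX9+ARID1a and no noDOX peak. Those of Bcor, a transcriptional corepressor gene, scored 3.97 to 7.38, and 3 of its 6 had a culture peak.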

How the data were processed

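ATAC-seq peak lists of 12 groups were used. The authors aligned reads with PEPATAC to GRCm38 (mm10), merged the replicates' alignments, called peaks with MACS2 with all duplicates kept and retained peaks with a normalised score of at least 3. The submitters' processing notes name Bowtie2 2.2.9, Picard 2.3.0, SAMtools 1.9, MACS2 2.1.1 and deepTools 2.5.4. The deposited score is a peak strength scaled per list (inferred from the list totals), the deposited fold enrichment a ratio over local background, and the deposited −log10 q-value the caller's significance. The last 2 were given for the in vivo lists. Counts of reads are not used here, so depth is unknown.

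Peaks were merged, annotated with GENCODE vM21 and scanned for motif letters in GRCm38.p6 with Python 3, pandas and pysam. Functions were tested on simulated data. Members, motifs and gene lists were chosen with earlier results of these data known. Named regions were the 10 highest-scoring, up to 3 per gene list, those of the 5 genes with the most, 4 with SOX letters opened by WT-SOX9, and 3 each with AP1 and GATA letters. A single one of the highest-scoring regions is not reported here. Alternatives varied thresholds, overlap, lists, windows and background.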

Additional observations from a re-analysis of the deposited data

How the results depend on the processing

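No paired analysis was possible because the authors pooled both replicates of each group into 1 list, and for the same reason no replicate was left out. Differences below are W2-only minus background, in percentage points, and the causes of shifts were not tested except where stated.

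The number of W2-only regions was 728 with a W2 score of at least 5, 602 at the common −log10 q minimum, 5349 without the W6 list in the rule, and within 1.5 times of 2531 in the 7 other settings. With the full region scanned, the shorter W2-only regions gave differences of −0.65 (SOX), −19.2 (AP1), −4.85 (GATA), −15.8 (RUNX) and −2.59 (TEAD). At the common −log10 q minimum they were 8.01 (SOX), −15.4 (AP1), 4.78 (GATA), −3.25 (RUNX), −8.35 (promoter) and −8.63 (WT-SOX9 culture peak). With lists cut to the length of the shortest they were −10.3 (AP1), 1.21 (GATA, −0.02 to 2.53), −3.19 (RUNX) and −1.47 (promoter). Without the W6 list they were 5.0 (SOX), 1.09 (GATA), 3.42 (TEAD), 1.34 (forkhead), −0.62 (promoter) and −7.70 (WT-SOX9), and without the W12 list −10.1 (AP1) and −7.50 (WT-SOX9). A score of at least 5 gave −2.69 (RUNX), −1.54 (promoter) and −12.4 (WT-SOX9) when required of all lists, and 7.08 (GATA) and −3.05 (promoter) when required at W2. Against all other in vivo regions the differences were 4.51 (SOX), −10.4 (AP1), −2.86 (RUNX), −9.49 (promoter) and −26.9 (WT-SOX9). Standardised to the W2 score they were −9.30 (AP1), −1.45 (promoter) and −15.7 (WT-SOX9). AP1 stood at −15.1 in the central 500 bp and −14.1 around the summit. The promoter difference was −1.76 for regions without another peak within 500 bp and −1.17 within 5 kb of a TSS. The WT-SOX9 difference was −0.21 against regions in exactly 1 other list, −8.39 when the culture peak had to cover 50% of the region and −7.99 at a culture score of at least 5. The SOX and GATA differences were positive in 16 of 17 settings each, and the AP1 and RUNX differences negative in all 17. TEAD was positive in 16 (down to −2.59), forkhead in all 17 (0.53 to 4.05) and CTCF negative in all 17 (−2.49 to −0.22) of the same settings, which were added for these after seeing the data. The intervals of forkhead with the full region scanned and of CTCF in several settings included 0.

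Standardising the background to GC content left the SOX, AP1, GATA and RUNX differences inside their intervals. Unknown depth and the unequal −log10 q floors limit what absence from a list shows.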
